A study of Mus musculus with 6 samples.

Results

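The genes described here are 39 cell cycle and DNA replication genes, measured on dual-colour microarrays in myeloid-derived suppressor cells of mice treated with a DNA methyltransferase inhibitor and a histone deacetylase inhibitor. They were taken from the array by name: a probe belongs to a gene where its gene name in the scanner file equals the listed symbol, and the brightest probe stands for the gene. All 39 genes had a probe (52 probes, of 39429 on the array), and 38 were kept among the 22125 genes tested. The cyclin E2 gene Ccne2 was not well above background on enough arrays and was not tested. The list was split by textbook role into 18 replication genes (17 kept), which act at the entry into and during S phase, and 21 mitosis genes (all kept), which act in G2 and mitosis.

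Monocytic myeloid-derived suppressor cells (M-MDSCs) were sorted from lungs and bone marrow of C57BL/6 mice, and RNA of treated and mock animals was hybridised to the same array, with 3 arrays per tissue. The groups were treated lung, mock lung, treated bone marrow and mock bone marrow, with 3 biological replicates of each. Treated mice received azacytidine, a nucleoside that depletes DNA methyltransferases in dividing cells, together with entinostat, which blocks histone deacetylases of class I. Mock mice received vehicle and were 6 to 8 weeks old. No age was given for the treated mice. A treated sample pools RNA of 3 to 6 mice, a mock sample that of 1 to 2 mice, so an array sets a larger pool against a smaller one. Mock RNA carried Cy3 and treated RNA Cy5 on every array, without a dye swap, so an effect of the dye cannot be told apart from the treatment. Each tissue lay on its own slide, so slide and tissue cannot be told apart either.

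A cell enters the cycle when D-type cyclins with Cdk4 and Cdk6, and then cyclin E with Cdk2, release the E2F transcription factors from the retinoblastoma proteins. E2F factors switch on the genes that license origins, make nucleotides and copy DNA. A later programme, driven from promoters that bind the DREAM and MuvB complexes and NF-Y, supplies cyclin A, cyclin B with Cdk1, the Aurora and Polo kinases and the spindle and kinetochore proteins. The abundance of these transcripts in a bulk sample is widely read as a gauge of how many cells are cycling. Among myeloid cells, precursors in the bone marrow divide, while mature monocytes in tissues largely do not. In bulk RNA, fewer cycling cells and less of a transcript per cell cannot be told apart.

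Between 55.1% and 69.5% of spots were well above background in the treated channel and between 49.9% and 62.8% in the mock channel, and no spot was saturated. The monocytic markers Itgam, Ly6c1, Ccr2, Csf1r, Cd14, Fcgr1, Lyz2 and Lyz1 were well above background on all arrays in both channels. Log ratios of different arrays correlated between 0.154 and 0.849 over all genes. Of the members, Aurkb was not well above background on any lung array in either channel, Chek1 was not on any mock bone marrow array, and Cdc25c was on 2 of 3 mock lung arrays.

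The first comparison asked how the resting level of these genes differed between the tissues, on the mock channel. Its levels are those after normalization within and between arrays, which uses both channels of an array. In mock lung cells 35 of 38 genes were lower than in mock bone marrow cells and none was higher, with an adjusted p under 0.05 in limma (Benjamini-Hochberg over all genes tested). Over all genes tested, 64.9% passed in this comparison, 33% of them lower and 31.8% higher as shares of all genes, and the median difference was 0. All 21 mitosis genes and 14 of 17 replication genes were lower, with median log2 differences of -2.22 and -1.59. For the same 35 genes every mock lung array lay below every mock bone marrow array, which held for 36.3% of all genes.

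The proliferation antigen Mki67 (the gene of Ki-67, which coats mitotic chromosomes) had log2 levels of 10.92, 10.17 and 10.42 in mock lung replicates 1 to 3, against 14.13, 14.12 and 14.32 in mock bone marrow replicates 1 to 3. It was 12.9-fold lower in mock lung (log2 -3.69 ± 0.18, SE, adjusted p = 1.6e-06, limma). Its other kept probe gave a log2 difference of -3.10. Ccna2, cyclin A2, which serves S phase and early mitosis, had 9.11, 8.39 and 8.50 in mock lung and 11.94, 12.01 and 12.03 in mock bone marrow. Its log2 difference was -3.33 (adjusted p = 2.56e-06, limma), and Ccnb2, a B-type cyclin and partner of Cdk1, was 9.39-fold lower, at 10.77, 9.81 and 9.97 against 13.33, 13.53 and 13.38 (adjusted p = 1.02e-05, limma). Cdca8, borealin of the chromosomal passenger complex, had 10.50, 9.59 and 9.72 in mock lung and 13.11, 13.35 and 13.33 in mock bone marrow, a log2 difference of -3.33. These 4 mitosis genes showed the widest gaps among the mitosis genes, with no overlap between the tissues.

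Top2a, topoisomerase II alpha, which untangles sister chromatids, had 8.82, 8.14 and 8.29 in mock lung, against 10.94, 11.16 and 11.16 in mock bone marrow (log2 difference -2.67, adjusted p = 6.39e-06, limma). Nusap1, a spindle protein, had 8.00, 7.47 and 7.84 in mock lung and 10.16, 10.08 and 10.17 in mock bone marrow. Cdc25c, the phosphatase that activates Cdk1, had 6.81, 6.68 and 6.62 in mock lung and 8.05, 8.24 and 8.35 in mock bone marrow. Aurkb, the kinase of the passenger complex, was not well above background in lung and was at least 1.37-fold lower in mock lung (adjusted p = 0.00262, limma). Cdk1, the mitotic kinase, had 9.19, 8.20 and 8.19 in mock lung, against 9.39, 9.47 and 9.59 in mock bone marrow (log2 difference -0.96, adjusted p = 0.0106, limma). Its other probes, near background on average, gave -0.51 and 0.08, so the 3 Cdk1 probes disagree. The remaining mitosis genes lay between -2.74 for Cenpe, the kinetochore motor, and -1.08 for Bub1, a spindle checkpoint kinase, with the Polo kinase Plk1 at -2.29 and the centromeric histone Cenpa at -2.22.

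Among the replication genes, Rrm1, the large subunit of ribonucleotide reductase, had 9.67, 9.12 and 9.26 in mock lung, against 11.57, 11.69 and 11.74 in mock bone marrow (log2 difference -2.32, adjusted p = 4.52e-06, limma), and Rrm2, the small subunit, differed by -3.03. The MCM helicase, which unwinds origins, had 3 subunits among the 12 genes with the smallest p. Mcm5 had 10.26, 9.77 and 9.93 in mock lung and 12.17, 12.56 and 12.45 in mock bone marrow. Mcm7 had 10.48, 9.77 and 9.97 in mock lung and 12.57, 12.73 and 12.50 in mock bone marrow. Mcm3 had 10.89, 10.36 and 10.40 in mock lung and 12.40, 12.66 and 12.70 in mock bone marrow. Counting Mcm2, Mcm4 and Mcm6 with them, the 6 helicase subunits were between 2.21-fold and 5.76-fold lower in mock lung. Mcm10, which helps start the fork, differed by -1.59, Gins1, a part of the active helicase, by -1.40, E2f1 by -1.03 and the licensing factor Cdc6 by -0.82.

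Tk1, the thymidine kinase of the salvage pathway, had 9.36, 8.65 and 8.87 in mock lung and 11.28, 11.33 and 11.30 in mock bone marrow, 5.08-fold lower (adjusted p = 1.02e-05, limma). Ccne1, cyclin E1, had 9.82, 8.90 and 8.90 in mock lung, against 11.13, 11.43 and 11.25 in mock bone marrow (log2 difference -2.06, adjusted p = 0.000146, limma). The genes that did not pass were Pcna, Tyms and Chek1. Pcna, the sliding clamp of DNA polymerases and also a repair factor, had 12.48, 12.21 and 12.31 in mock lung, against 12.38, 12.42 and 12.62 in mock bone marrow (log2 difference -0.14 ± 0.10, SE, adjusted p = 0.246, limma), and the tissues overlapped. Tyms, thymidylate synthase, differed by -0.00 ± 0.07 (SE) on a dim probe, and Chek1, a checkpoint kinase, was dim and not well above background in mock bone marrow.

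**Figure D1:**
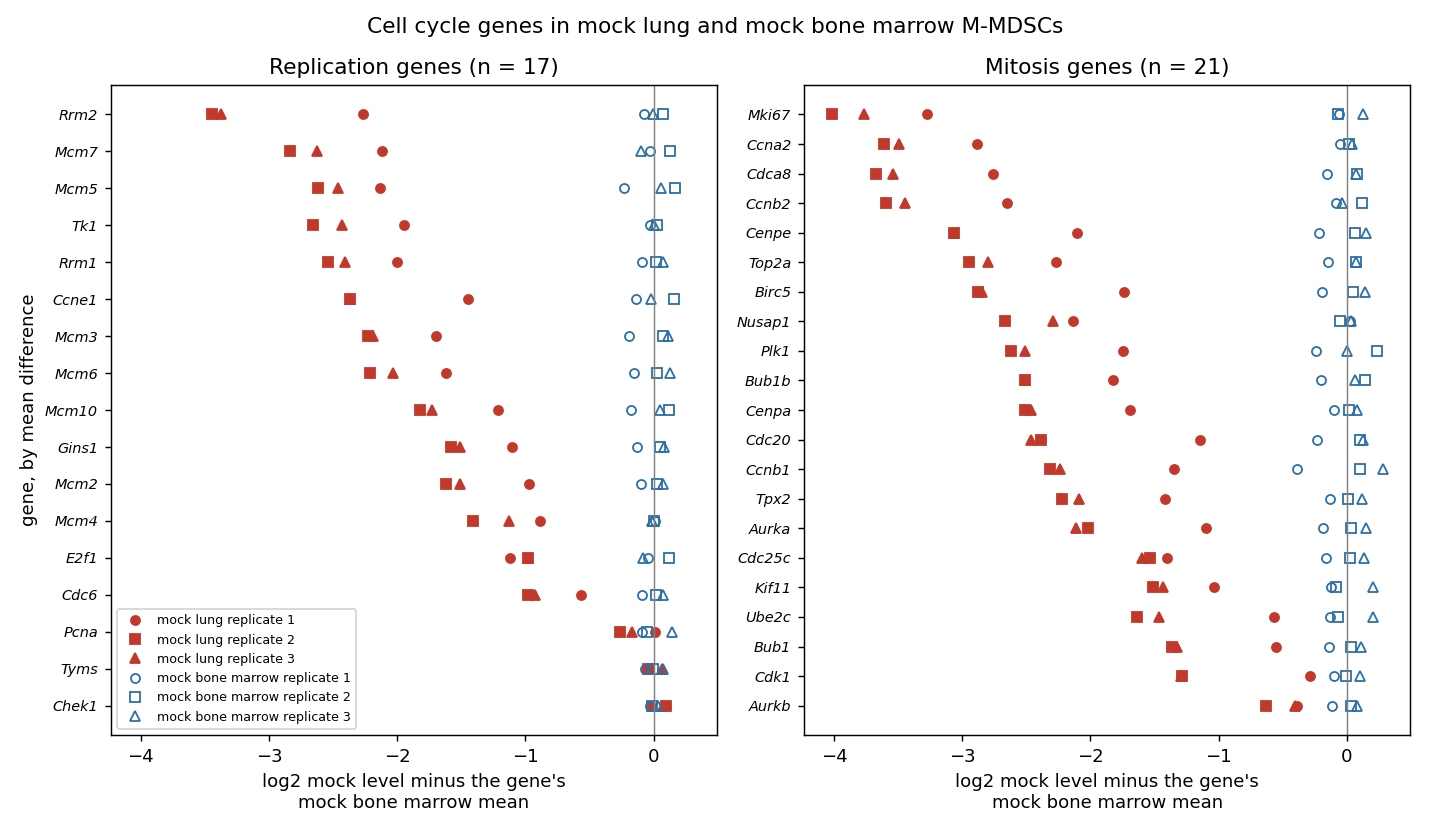
Mock level of each kept gene on each array, as the log2 level minus the mean of the 3 mock bone marrow arrays of that gene; filled red symbols are mock lung, open blue symbols mock bone marrow, and the shape gives the replicate. For 35 of 38 genes all mock lung points lie left of all mock bone marrow points, and Pcna, Tyms and Chek1 are the exceptions.

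The mock lung replicates were not alike. Replicate 1 had the highest level of the 3 for 35 of 38 genes. Cdc20, the activator of the anaphase-promoting complex, had 11.10 in mock lung replicate 1, against 9.86 and 9.78 in mock lung replicates 2 and 3. The median SD over mock lung arrays was 0.46 for mitosis genes and 0.28 for replication genes on the log2 scale, and 0.09 over all genes. In mock bone marrow the corresponding values were 0.13, 0.11 and 0.10. Leaving out lung replicate 1 kept the count at 35, with the mitosis median at -2.48.

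Genes of the same pathways outside the 39 moved with them between the mock tissues. Of 53 further replication genes tested, 46 were lower and 2 higher in mock lung (median log2 difference -1.39), and of 69 further mitosis genes 67 were lower and 1 higher (median -1.64). Pola2, a subunit of DNA polymerase alpha, was 16.3-fold lower in mock lung and Ndc80, the kinetochore protein that grips microtubules, 16.1-fold lower. Of 11 tested cyclins, kinases and regulators of G1, 6 were lower and 2 higher. Myb, a transcription factor of haematopoietic progenitors, was 26.0-fold lower in mock lung, while Ccnd1, cyclin D1, was at least 7.96-fold higher, since it was not well above background in mock bone marrow. Of 22 genes that restrain the cycle, 12 were higher in mock lung and 8 lower. Cdkn1a (p21) was 4.24-fold higher and Cdkn1b (p27) 1.84-fold higher, a call lost with the mean of its probes (log2 difference 0.065, adjusted p = 0.513, limma), and the kinase inhibitor Cdkn2c (p18) and the Cdk1 inhibitory kinase Pkmyt1 were 2.66-fold and 5.57-fold lower. Of 15 p53 target genes tested, 11 were higher and 2 lower in mock lung.

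Markers of other cells also differed between the mock tissues. All 6 markers of early neutrophil and monocyte precursors (Mpo, Elane, Prtn3, Ctsg, Ms4a3 and Fcnb) were lower in mock lung, with a median log2 difference of -6.12, and all 6 stayed well above background on every array. Their median level was 7.61 to 8.29 on the mock lung arrays, against 13.86 to 14.16 on the mock bone marrow arrays. Of 9 granulocyte markers 7 were lower in mock lung, and of 8 macrophage markers 7 were higher. All 5 lung epithelial, 4 of 5 endothelial, 6 of 7 B cell and all 6 T and NK cell markers were higher in mock lung. Of 7 stem and progenitor markers 5 were higher and 1 lower, of 7 erythroid markers 1 was higher and 3 lower, and of 8 monocytic markers 3 were higher and none lower. The part of these cells in the difference of the cell cycle genes was not tested.

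The promoters of the members were searched for short words, which the choice of the list did not use. Promoters, from 250 bases before to 50 after the transcription start, were taken from RefSeq (GRCm38.p6), and 32 of the 39 genes matched. For each member the promoter listed first was used, while the share over all promoters counts every distinct start. Whether the start listed first is the one used in these cells was not tested. On both strands a script searched E2F words (TTTCCCGC, TTTCGCGC, TTTGCCGC and TTTGGCGC), the NF-Y word CCAAT, and the word TTTGAA of the cell cycle genes homology region (CHR), at which the DREAM and MuvB complexes bind. E2F words were in 5 of 15 replication promoters (33.3%), 1 of 17 mitosis promoters (5.9%) and 2.3% of all 32817 promoters of the table. The CHR word was in 1 of 15 replication promoters (6.7%), 12 of 17 mitosis promoters (70.6%) and 17.9% of all. CCAAT was in 60.0% of replication, 88.2% of mitosis and 37.4% of all promoters. Both CCAAT and TTTGAA were in 70.6% of mitosis, 6.7% of replication and 6.9% of all promoters. A match is a description of the letters and not a site of binding.

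**Figure D2:**
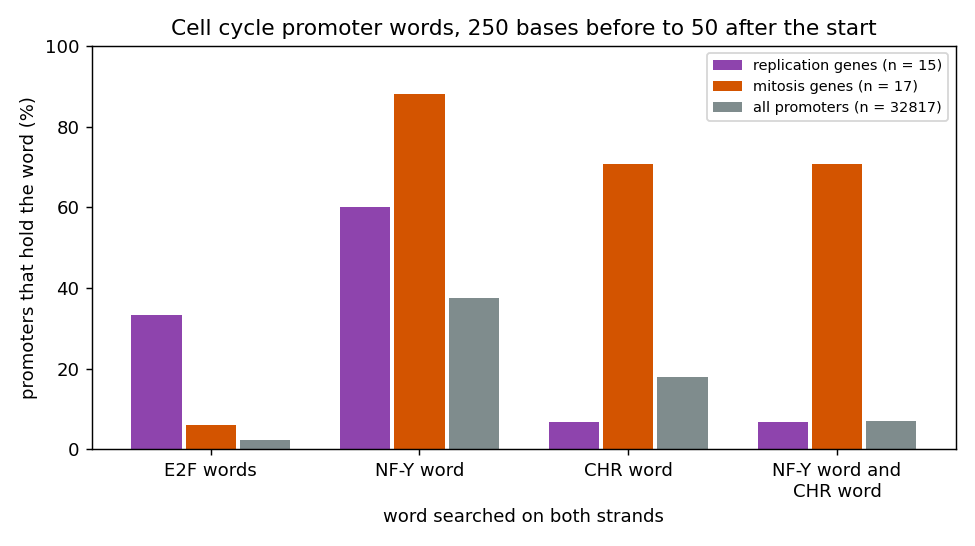
Share of promoters (%, from 250 bases before to 50 after the start) that hold each word on either strand, for replication genes (n = 15), mitosis genes (n = 17) and all promoters of the RefSeq table (n = 32817); the NF-Y word is CCAAT. E2F words reach 33.3% in replication genes and the CHR word 70.6% in mitosis genes.

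The promoters of 5 genes show both kinds. Mcm5 and Mcm6 are replication genes and Mki67 a mitosis gene that rose in treated lung cells, and Cdk1 is the mitotic kinase and Ccnb2 its cyclin partner. Each is written 5′ to 3′ on the strand of the gene, in lower case, with the words of the search in capitals (a word on the other strand is read as its reverse complement, such as ATTGG for CCAAT). The Mcm5 promoter lies at chr8:75109259-75109558 (plus strand), that of Mcm6 at chr1:128359656-128359955 (minus strand), that of Mki67 at chr7:135716330-135716629 (minus strand), that of Ccnb2 at chr9:70421505-70421804 (minus strand) and that of Cdk1 at chr10:69352863-69353162 (minus strand), all in GRCm38.p6.
Mcm5: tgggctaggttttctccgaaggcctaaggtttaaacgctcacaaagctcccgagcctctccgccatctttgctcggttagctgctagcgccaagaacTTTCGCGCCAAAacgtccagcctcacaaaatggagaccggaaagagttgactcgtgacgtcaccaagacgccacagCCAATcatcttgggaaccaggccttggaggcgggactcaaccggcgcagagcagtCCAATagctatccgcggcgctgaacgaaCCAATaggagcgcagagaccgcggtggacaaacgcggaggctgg
Mcm6: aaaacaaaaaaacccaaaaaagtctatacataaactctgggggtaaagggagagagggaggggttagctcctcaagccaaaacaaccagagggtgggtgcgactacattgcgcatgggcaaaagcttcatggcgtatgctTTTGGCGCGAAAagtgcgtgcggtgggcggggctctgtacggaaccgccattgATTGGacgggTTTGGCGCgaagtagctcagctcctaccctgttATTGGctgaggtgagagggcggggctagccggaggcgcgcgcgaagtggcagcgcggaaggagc
Mki67: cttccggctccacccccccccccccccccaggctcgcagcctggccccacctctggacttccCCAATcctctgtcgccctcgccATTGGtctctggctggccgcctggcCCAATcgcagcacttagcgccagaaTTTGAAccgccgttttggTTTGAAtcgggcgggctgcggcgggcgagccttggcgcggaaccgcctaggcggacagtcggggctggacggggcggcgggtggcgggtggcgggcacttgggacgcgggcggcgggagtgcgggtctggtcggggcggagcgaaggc
Ccnb2: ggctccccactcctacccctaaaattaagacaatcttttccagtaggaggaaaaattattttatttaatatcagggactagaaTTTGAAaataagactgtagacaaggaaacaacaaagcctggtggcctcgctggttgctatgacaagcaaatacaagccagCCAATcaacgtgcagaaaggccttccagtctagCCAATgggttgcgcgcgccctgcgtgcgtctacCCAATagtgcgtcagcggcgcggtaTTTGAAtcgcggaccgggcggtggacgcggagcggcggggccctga
Cdk1: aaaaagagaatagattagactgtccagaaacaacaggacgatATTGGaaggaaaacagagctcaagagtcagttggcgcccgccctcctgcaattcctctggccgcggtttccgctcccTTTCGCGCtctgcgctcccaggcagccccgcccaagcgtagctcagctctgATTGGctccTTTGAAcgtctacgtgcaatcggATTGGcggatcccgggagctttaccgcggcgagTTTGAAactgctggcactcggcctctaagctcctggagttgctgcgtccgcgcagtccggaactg
In the Mcm5 promoter an E2F word starts at base -153 and overlaps one on the other strand at -149, where the first base after the start site counts as 1. In that of Mcm6 E2F words start at -110, -106 and -47. In that of Mki67 CHR words start at -116 and -98, downstream of CCAAT words at -188, -166 and -141. The Ccnb2 promoter has CCAAT words at -87, -54 and -21 and CHR words at -167 and 5. The Cdk1 promoter holds all 3 kinds, with an E2F word at -131 and CHR words at -71 and -15.

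The second comparison asked how treatment changed these genes in lung cells. In treated lung cells 5 of 38 genes were higher than in mock lung cells and none was lower (adjusted p under 0.05, limma), which is 13.2% of the list. Over all genes tested 34% passed, 19.9% higher and 14% lower, so the share of these genes is below the background. Of the 5, 4 were replication genes, the helicase subunits Mcm3, Mcm5 and Mcm6 and the thymidine kinase Tk1, and the other was Mki67. The median log2 ratio was 0.25 for replication genes and 0.13 for mitosis genes, against 0.01 over all genes. All 5 remained lower in treated lung cells than in any bone marrow sample, as they already were in mock lung cells. The share of all genes for which this held was not counted.

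Mcm5 had log2 levels of 10.73, 10.16 and 10.49 in treated lung replicates 1 to 3, against 10.26, 9.77 and 9.93 in mock lung replicates 1 to 3. Its log2 ratios of treated over mock were 0.47, 0.39 and 0.56, the closest agreement among the 5 genes. It was 1.39-fold higher in treated lung (log2 0.47 ± 0.08, SD, n = 3; adjusted p = 0.00159, limma). Mcm6 had 12.65, 12.05 and 12.42 in treated lung and 12.17, 11.57 and 11.76 in mock lung, with ratios of 0.48, 0.48 and 0.66 (mean 0.54 ± 0.11, SD, n = 3; adjusted p = 0.00552, limma). Mcm3 had 11.28, 10.77 and 11.03 in treated lung and 10.89, 10.36 and 10.40 in mock lung, with ratios of 0.39, 0.41 and 0.64 (mean 0.48 ± 0.14, SD, n = 3; adjusted p = 0.015, limma). For all 3 subunits the ratio was above 0 on every lung array.

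Mki67 had 11.29, 10.67 and 11.33 in treated lung and 10.92, 10.17 and 10.42 in mock lung. Its ratios of 0.37, 0.50 and 0.91 gave the largest mean of the list, a 1.51-fold rise (log2 0.59 ± 0.28, SD, n = 3; adjusted p = 0.00458, limma), and its other kept probe gave 0.56. Tk1 had 9.53, 9.05 and 9.61 in treated lung and 9.36, 8.65 and 8.87 in mock lung, with ratios of 0.18, 0.40 and 0.73 (mean 0.44 ± 0.28, SD, n = 3; adjusted p = 0.0222, limma). Without lung replicate 3 Aurka, a mitotic kinase, was lower (log2 -0.48, adjusted p = 0.0316, limma). The calls of Mcm3 and Tk1 were lost without lung replicate 2 (adjusted p = 0.051 and 0.0759, limma) and without lung replicate 3 (0.0765 and 0.11). That of Mcm3 was also lost with the scanner's processed signals (adjusted p = 0.0548, limma), and that of Tk1 with each tissue fitted apart (0.0559). The calls of Mcm5, Mcm6 and Mki67 held with each array left out. Without lung replicate 1 the count of higher genes was 10, and without lung replicate 2 it was 3. With each array centred on its median in place of loess, none of the 5 passed (adjusted p between 0.306 and 0.418, limma). That setting moves the median of all genes to 0.12 in lung and 0.20 in bone marrow, and the 5 genes then had log2 values between 0.66 and 0.80.

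**Figure D3:**
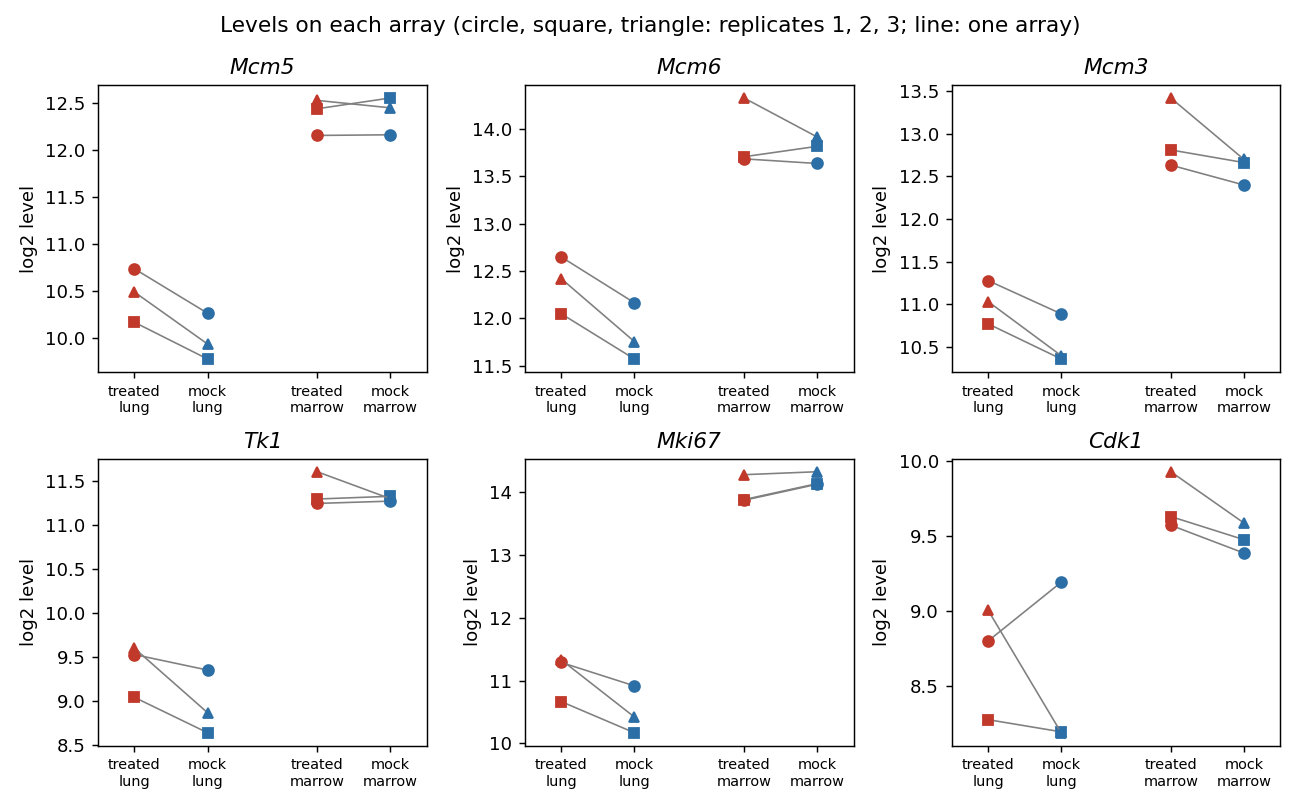
Log2 level of the 5 genes that rose in lung and of Cdk1 on each array, with treated samples left of mock samples in lung and in bone marrow; circles, squares and triangles are replicates 1, 2 and 3, and a line joins the channels of 1 array. Every line of Mcm5, Mcm6, Mcm3, Tk1 and Mki67 in lung runs down to the mock sample, while Cdk1 rises on 1 lung array and falls on the others.

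The other replication genes in lung ranged from -0.11 to 0.39. Of 17 replication genes 10 had a ratio above 0 on all 3 lung arrays (58.8%, against 35.1% of all genes): the 4 named, and Mcm2, Mcm4, Mcm7, Tyms, Rrm1 and E2f1. Mcm2 had ratios of 0.24, 0.40 and 0.54 and did not pass (adjusted p = 0.0677, limma). The transcription factor E2f1 had 0.65, 0.04 and 0.14. Rrm2 spanned the widest range of the replication genes, with -0.78, -0.04 and 0.56, and Cdc6, Gins1 and Mcm10 were below 0 on replicate 1 and above 0 on the others. Pcna had 12.30, 12.08 and 12.40 in treated lung, against 12.48, 12.21 and 12.31 in mock lung, with ratios of -0.18, -0.13 and 0.09 (adjusted p = 0.596, limma). Ccne1 had 9.41, 8.63 and 9.24 in treated lung and 9.82, 8.90 and 8.90 in mock lung, with ratios of -0.41, -0.27 and 0.34 (adjusted p = 0.587, limma). For both genes the lung arrays fell on either side of 0.

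The mitosis genes of lung depended on the array. Their median ratio was -0.28 on lung replicate 1, where 20 of 21 were below 0. It was 0.10 on replicate 2, where 16 were above 0, and 0.51 on replicate 3, where 20 were above 0. Mki67 alone was above 0 on all 3 lung arrays (4.76%, against 35.1% of all genes). Top2a had ratios of -0.04, 0.16 and 0.51 from 8.79, 8.30 and 8.80 in treated lung and 8.82, 8.14 and 8.29 in mock lung (adjusted p = 0.169, limma). Cdk1 had 8.80, 8.28 and 9.01 in treated lung and 9.19, 8.20 and 8.19 in mock lung, hence ratios of -0.39, 0.08 and 0.82 (adjusted p = 0.543, limma). The survivin gene Birc5 ran from -0.31 on replicate 1 to 0.91 on replicate 3, and Cdc20 from -0.75 to 0.62.

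Treated lung levels varied less between arrays than mock levels for the mitosis genes, with a median SD of 0.29 in treated lung against 0.46 in mock lung. For the replication genes it was 0.25 in treated and 0.28 in mock lung. In bone marrow the replication genes went the other way, with 0.31 in treated and 0.11 in mock cells. The ratios on lung replicate 1 were the lowest of the 3 for 34 of 38 genes, the same array on which the mock level was highest for 35 of 38. In treated lung, replicate 3 was highest for 24 genes and replicate 1 for 11. The labels do not say how the mice of mock lung replicate 1 differed, and the part of this sample in the ratios was not tested beyond leaving it out. Without lung replicate 1 the genes that passed in addition were Birc5, Ccna2, Ccnb2, Cdc6 and Tpx2 (log2 values 0.37 to 0.58, adjusted p 0.00745 to 0.0482, limma), and the median of the mitosis genes was 0.32. Without lung replicate 3 that median was -0.09.

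**Figure D4:**
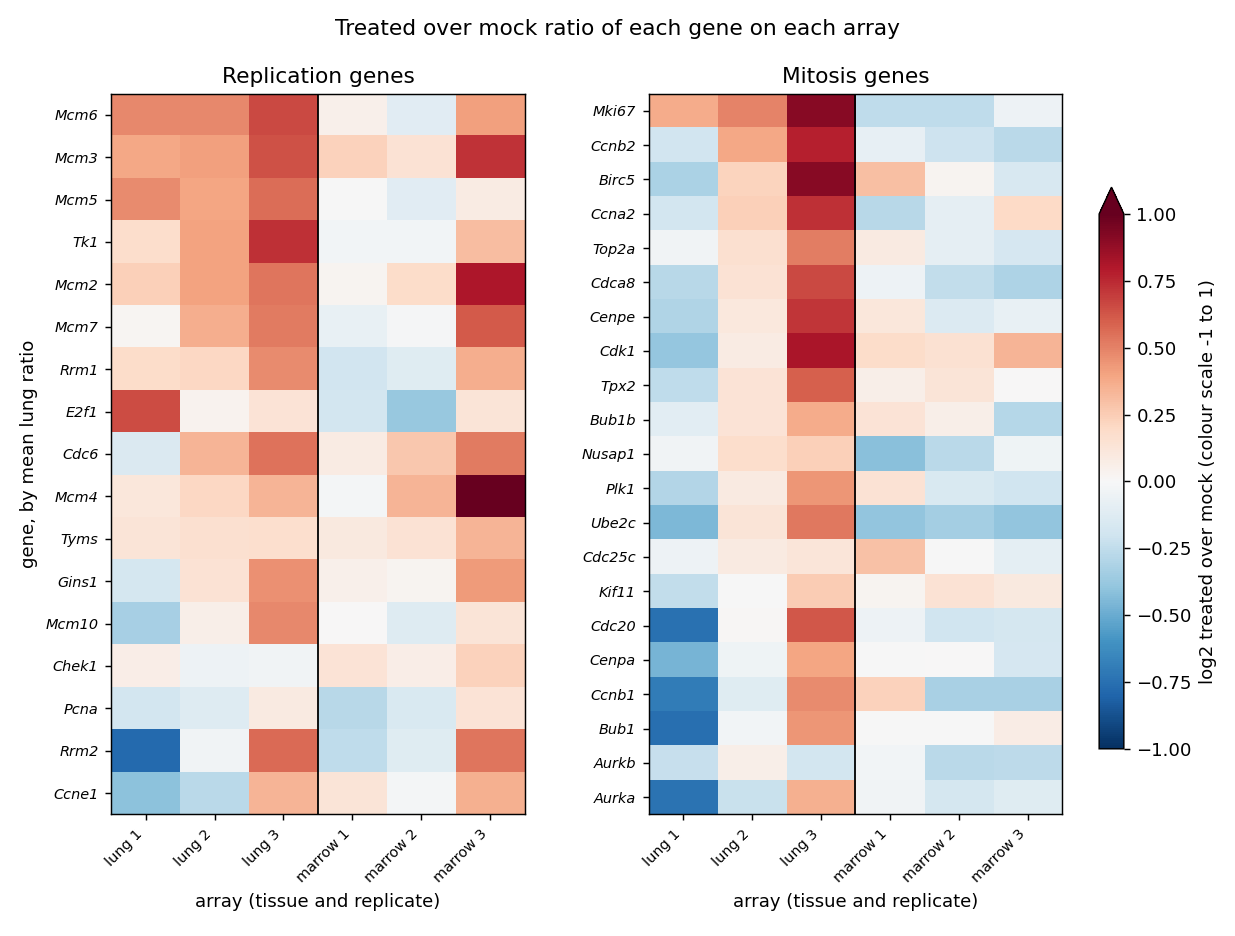
Log2 ratio of treated over mock for each kept gene (rows, by mean lung ratio) on the 3 lung and 3 bone marrow arrays (columns); red is higher in treated and blue lower, with the colour scale ending at 1 in either direction. The mitosis genes are mostly blue on lung replicate 1 and red on lung replicate 3, and the replication genes of bone marrow are red on replicate 3.

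Of the 53 further replication genes 12 were higher and 6 lower in treated lung cells (34%, as over all genes tested). Prim1, the catalytic subunit of primase, had ratios of 0.69, 0.76 and 0.87, and Lig1, the ligase that joins Okazaki fragments, 0.76, 0.73 and 0.79, a 1.69-fold rise (adjusted p = 0.000854, limma). E2f2, an activator E2F, had -0.83, -0.70 and -0.86, and Dck, deoxycytidine kinase of the salvage pathway, -0.72, -0.68 and -0.81 (adjusted p = 0.000176 and 0.000241, limma). Each of these 4 genes kept its direction on every lung array, but all 4 calls were lost with median centring (adjusted p 0.168 to 0.404, limma). Of 69 further mitosis genes 3 were higher and 3 lower (8.7%). The condensin subunits Ncapd2 and Ncaph were 1.40-fold and 1.39-fold higher, and Racgap1, of the central spindle, and Hmgb2, a chromatin protein, were 1.51-fold and 1.38-fold lower. The calls of Ncapd2, Ncaph, Racgap1 and Hmgb2 were also lost with median centring (adjusted p 0.267 to 0.813, limma).

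Among the genes of the entry into the cycle, Ccnd2, cyclin D2, had ratios of 1.68, 1.49 and 1.48 in lung and was 2.94-fold higher in treated cells (adjusted p = 2.57e-05, limma), and Ccnd1 had 1.20, 1.26 and 1.39, 2.43-fold higher (adjusted p = 0.00067, limma). Cdk6, their kinase, was 1.33-fold higher (adjusted p = 0.0216), a call lost without any 1 of the lung replicates (adjusted p up to 0.077, limma). Cdk7, of the Cdk-activating kinase, was 1.21-fold lower, a call lost without lung replicate 2 or 3. It was also lost with each tissue fitted apart (adjusted p = 0.0622, limma) and with the mean of its probes (log2 -0.093, adjusted p = 0.269, limma). Median centring ended the calls of Cdk6 and Cdk7 (adjusted p = 0.489 and 0.9, limma). Of 11 such genes tested 3 were higher and 2 lower in treated lung. Of 22 restraining genes 4 were higher and 4 lower. Pkmyt1 rose 1.66-fold and Cdkn1c (p57) 1.98-fold, while Rb1, the retinoblastoma protein, fell 1.29-fold and the stress gene Gadd45a 1.78-fold. The call of Cdkn1c was lost with the scanner's processed signals (adjusted p = 0.0638, limma). That of Gadd45a was lost with each tissue fitted apart (adjusted p = 0.0559, limma). Median centring ended the calls of Cdkn1c, Gadd45a, Pkmyt1 and Rb1 (adjusted p = 0.0781, 0.311, 0.174 and 0.817, limma). Of 15 p53 target genes 3 were higher and 1 lower. Sesn1, a stress-induced sestrin, was 2.26-fold higher (ratios 1.30, 1.05 and 1.18; adjusted p = 8.59e-05, limma).

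Markers of other cells moved with the treatment in lung. All 8 macrophage markers were higher (median ratio 2.27), with median levels of 13.41 to 14.12 on the treated lung arrays and 11.35 to 12.01 on the mock lung arrays. All 5 lung epithelial markers were higher (median 2.07), 4 of 5 endothelial markers were higher and 6 of 9 granulocyte markers were higher (median 1.37). The granulocyte median was 1.65, 2.22 and -0.15 on lung replicates 1, 2 and 3. All 7 B cell markers were lower (median -1.16), and 3 of 6 T and NK cell markers were lower. Of 8 monocytic markers 2 were higher and 1 lower, of 7 stem and progenitor markers 3 were higher and 1 lower, and of 7 erythroid markers 1 was higher and 2 lower. None of the 6 early precursor markers passed, and their median ratio was 0.51, 0.51 and -0.48 on lung replicates 1, 2 and 3. The part of these cells in the ratios of the cell cycle genes was not tested.

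The third comparison asked the same of bone marrow cells. None of the 38 genes differed between treated and mock bone marrow cells at an adjusted p under 0.05 in limma, while 7 had an unadjusted p under that threshold and the smallest adjusted p was 0.0687. Over all genes tested 14.4% passed, 7.26% higher and 7.15% lower. The replication genes had a median log2 ratio of 0.14, with 14 of 17 above 0, and the mitosis genes a median of -0.06, with 15 of 21 below 0. The median over all genes was 0.02. With each array centred on its median the mitosis median turned positive, at 0.45, with that of all genes at 0.20 and that of the replication genes at 0.61.

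Mcm3 came nearest, with log2 levels of 12.63, 12.81 and 13.42 in treated bone marrow, against 12.40, 12.66 and 12.70 in mock bone marrow. Its ratios were 0.23, 0.15 and 0.72 (mean 0.37 ± 0.31, SD, n = 3; adjusted p = 0.0687, limma). Mcm4 had 0.48 ± 0.59 (SD, n = 3) and spanned -0.02, 0.34 and 1.12 on replicates 1 to 3. Of the replication genes 6 were above 0 on all 3 bone marrow arrays (35.3%, against 32.7% of all genes). On replicate 3 all 17 replication genes were above 0, with a median of 0.36, while the medians on replicates 1 and 2 were 0.01 and -0.02. Without bone marrow replicate 3 the median of the replication genes was -0.03.

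The same array stood apart for the further replication genes, 48 of 53 of which were above 0 on replicate 3 (median 0.36), against 23 and 22 on replicates 1 and 2. On this array the 8 monocytic markers had a median ratio of -0.80, against -0.07 and 0.20 on replicates 1 and 2, and the early precursor markers one of 0.48, against 0.35 and 0.01. The granulocyte markers had 0.072, against 0.354 and 0.412, and the stem and progenitor markers 0.265, against -0.065 and -0.013. On replicate 3 the medians of the other marker lists lay between -0.068 and 0.173. The part of these cells in the shift was not tested.

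**Figure D5:**
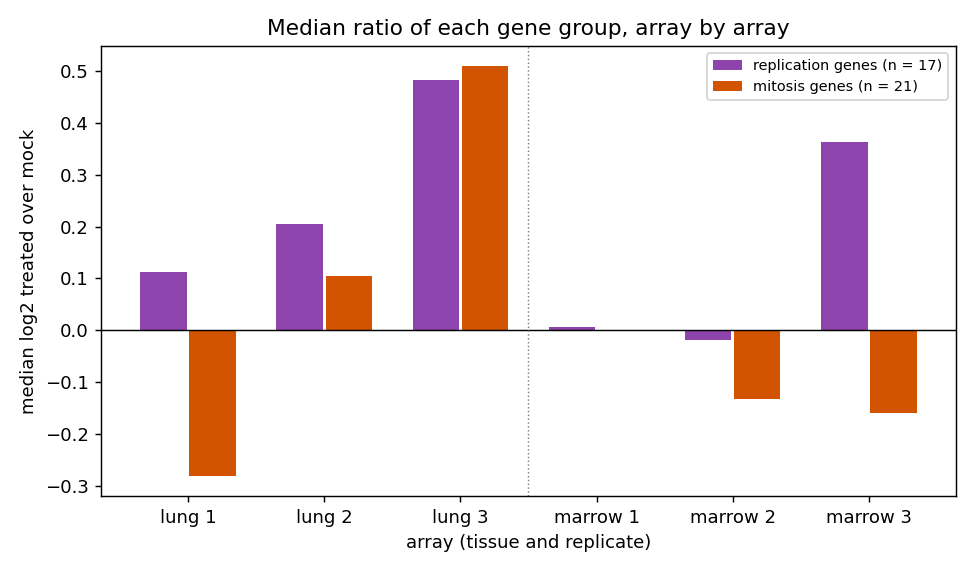
Median log2 ratio of treated over mock of the 17 replication genes and the 21 mitosis genes on each array, lung left of bone marrow. The groups part on lung replicate 1 (0.11 and -0.28) and on bone marrow replicate 3 (0.36 and -0.16), and lie close together on lung replicate 3 (0.48 and 0.51).

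Among the mitosis genes, 8 were below 0 on all 3 bone marrow arrays (38.1%, against 26.2% of all genes): Mki67, Ccnb2, Aurka, Aurkb, Cdc20, Cdca8, Ube2c and Nusap1. Ube2c, the ubiquitin-conjugating enzyme of the anaphase-promoting complex, had ratios of -0.39, -0.34 and -0.39 (mean -0.38 ± 0.03, SD, n = 3; adjusted p = 0.14, limma). The fit shares its spread with the lung arrays, where Ube2c ran from -0.45 to 0.53. Fitted on bone marrow alone, Ube2c passed (adjusted p = 0.0178, limma), as it did without lung replicate 1 (adjusted p = 0.0259, limma), and no other member passed in either fit. Mki67 had 13.88, 13.87 and 14.27 in treated bone marrow, against 14.13, 14.12 and 14.32 in mock bone marrow, with ratios of -0.25, -0.26 and -0.05 (adjusted p = 0.261, limma). Nusap1 had -0.42, -0.27 and -0.04 (adjusted p = 0.103, limma).

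Top2a had ratios of 0.09, -0.09 and -0.17 in bone marrow (adjusted p = 0.764, limma), and Cdk1 had 0.19, 0.15 and 0.34 (adjusted p = 0.448, limma). Pcna had -0.28, -0.15 and 0.14 (adjusted p = 0.507, limma), and Ccne1 had 0.13, -0.02 and 0.36 (adjusted p = 0.488, limma). Of these 4 genes only Cdk1 kept 1 sign on all 3 arrays, on its brightest probe. The other Cdk1 probes, near background on average, gave mean ratios of -0.19 and -0.02 in bone marrow. The other members lay between -0.20 and 0.34.

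Of 11 genes of G1, 5 were higher and 1 lower in treated bone marrow. Ccnd2 had ratios of 1.36, 1.30 and 1.47 and was 2.60-fold higher in treated bone marrow (adjusted p = 0.00073, limma). Ccnd1 had 0.71, 1.21 and 1.58 and was at least 2.24-fold higher, since it was not well above background in mock bone marrow (adjusted p = 0.00405, limma). Cdk6 had 0.50, 0.69 and 1.09, 1.69-fold higher (adjusted p = 0.0063, limma). Myc, a driver of growth, had 1.05, 1.29 and 1.44 and was 2.40-fold higher (adjusted p = 0.022), a call lost without any 1 of the bone marrow replicates (adjusted p 0.0668 to 0.115, limma).

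Of 53 further replication genes 5 were higher and 1 lower in treated bone marrow. Brca2, a recombination mediator, had ratios of 0.37, 0.50 and 0.74, and Ung, which removes uracil from DNA, 0.65, 0.40 and 0.85. Rfc4, of the clamp loader, was 1.37-fold higher and E2f2 1.35-fold lower, though median centring turned the sign of E2f2 (log2 0.16). The calls of Ung and Rfc4 were lost on leaving out bone marrow replicate 1 (adjusted p = 0.0555 and 0.0526, limma), and that of Ung also without replicate 3 (0.0596). Of 69 further mitosis genes 1 was higher (Pttg1, securin) and 2 lower (Gas2l3 and Spc24, a kinetochore protein). Those of Gas2l3 and Spc24 were lost without any 1 of the bone marrow replicates (adjusted p up to 0.106 and 0.145, limma) and that of Pttg1 without replicate 1 or 3 (up to 0.101). Of 22 restraining genes 1 was higher and 3 lower, with Cdkn2c 1.36-fold, Rb1 1.26-fold and the antiproliferative Btg2 1.46-fold lower and Cdkn1a 1.37-fold higher. Median centring turned the signs of Rb1 (log2 0.11), Gas2l3 (0.081) and Spc24 (0.044). Each of these 4 calls of restraining genes was lost on leaving out some bone marrow replicates (adjusted p up to 0.0884, 0.0885, 0.0881 and 0.22, limma). Of 15 p53 targets 2 were higher.

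Fewer markers of other cells passed in bone marrow. None of 9 granulocyte, 6 early precursor, 7 B cell, 6 T and NK cell, 8 macrophage, 5 epithelial or 5 endothelial markers passed in bone marrow, while 1 of 7 stem and progenitor markers was higher, 1 of 7 erythroid markers was lower, and 1 of 8 monocytic markers was higher and 2 were lower.

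The last comparison was the test of the difference between the tissues, the lung ratio minus the bone marrow ratio. Of 38 genes 2 passed, both higher in lung (5.26%, against 15.2% of all genes, 9.79% higher and 5.46% lower). Mki67 had ratios of 0.37, 0.50 and 0.91 in lung, against -0.25, -0.26 and -0.05 in bone marrow, a difference of 0.78 ± 0.15 (SE, log2; adjusted p = 0.0151, limma). Mcm5 had 0.47, 0.39 and 0.56 in lung, against -0.01, -0.12 and 0.08 in bone marrow, a difference of 0.49 ± 0.09 (SE, log2; adjusted p = 0.0145, limma). For both genes every lung ratio lay above every bone marrow ratio. Leaving out bone marrow replicate 1 or 2 ended the call of Mki67 (adjusted p = 0.0554 or 0.0648, limma) and leaving out replicate 2 that of Mcm5 (adjusted p = 0.0577, limma), and both were lost with median centring (differences 0.28 and 0.11). Without lung replicate 1 the count was 4, with Ccnb2 and Ube2c in addition (adjusted p = 0.0147 and 0.0175, limma), and without bone marrow replicate 2 it was 0.

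For the other members the response was not shown to differ between the tissues. Mcm6 had a difference of 0.42 ± 0.14 (SE, log2; adjusted p = 0.0841, limma) and passed without bone marrow replicate 3 (adjusted p = 0.0271, limma). Mcm3 had 0.11 ± 0.16 and Tk1 0.35 ± 0.16 (SE), so the rise of these genes in lung was not shown to be particular to it. Top2a had 0.26 ± 0.15, Cdk1 -0.06 ± 0.27, Pcna 0.03 ± 0.13 and Ccne1 -0.27 ± 0.20 (SE, log2), and none passed.

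Among the further genes, Lig1 had a difference of 0.87, with ratios of 0.76, 0.73 and 0.79 in lung, against -0.20, -0.30 and 0.16 in bone marrow (adjusted p = 0.00598, limma). Pkmyt1 had 0.80, 0.60 and 0.80 in lung, against -0.21, -0.24 and -0.03 in bone marrow (adjusted p = 0.00254, limma), and Sesn1 had 1.30, 1.05 and 1.18 in lung, against -0.08, -0.27 and -0.29 in bone marrow (adjusted p = 0.000725, limma). Median centring ended the calls of Lig1, Pkmyt1 and Sesn1 (adjusted p 0.152 to 0.798, limma). In these genes the lung ratios all lay above the bone marrow ratios. Myc went the other way, with -1.24, -0.30 and 0.44 in lung, against 1.05, 1.29 and 1.44 in bone marrow (difference -1.63, adjusted p = 0.0266), a call lost without any 1 bone marrow replicate or lung replicate 2 (adjusted p up to 0.0942, limma). Ccnd2, at 0.18 ± 0.10 (SE, log2), did not pass. Nor did Ccnd1, whose rise in bone marrow is only a lower bound, so that its difference has no exact value. With the scanner's processed signals the Ccnd1 difference was -2.98 (adjusted p = 0.00323, limma).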

How the data were processed

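RNA of sorted cells was measured on 6 dual-colour Agilent arrays, 3 per tissue, and each scanner file holds spot intensities of both channels as deposited by the authors (Feature Extraction 10.7.3.1, per the file headers). The authors also deposited a log2 ratio per spot for each array. Their processing notes name limma, with no version. The headings of the deposited log2 matrices read mock over treated, but the values equal Cy5 over Cy3 (correlation 1 on every array, 43173 spots), that is, treated over mock by the dyes in the labels, and that direction is used here.

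From the scanner intensities, normexp background correction (offset 50) on mean signals and median local backgrounds was followed by loess within each array (R 4.3.3, limma 3.58.1). Outlier spots were left out and spots of a probe averaged. Probes were kept where 2 or more arrays of any tissue and channel flagged them as well above background. A gene is a gene name with its brightest kept probe. Ratios of both tissues were fitted together (4 residual and 3.53 prior degrees of freedom), and mock levels were compared on the Cy3 channel after Aquantile. P-values are two-sided, with Benjamini-Hochberg adjustment over 22125 genes and a threshold of 0.05. The number of arrays limits the precision. The fit was tested on simulated data.

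The members and all lists were chosen with earlier results of these data known. Values on every array are given for members that passed (the 12 with the smallest p where more did) and for Mki67, Top2a, Cdk1, Pcna and Ccne1. Of each pathway list up to 4 genes with the smallest p in a comparison are named, and other named genes were chosen after their values were seen. Alternatives changed the background, signals, normalization, filter, probe choice, samples fitted, replicate block and replicates. A cell type marker is not reported here, and the counts of its list leave it out.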

Additional observations from a re-analysis of the deposited data

Results flagged for a closer look

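For 19 genes of the cell cycle lists the response to treatment differed between lung and bone marrow by the test of the difference itself in limma (adjusted p under 0.05 over all genes). All values are the log2 ratio in lung minus that in bone marrow. Among the members, Mki67 had 0.78 and Mcm5 0.49. Among the other replication genes Lig1 had 0.87, Prim1 0.50 and Pold1 0.39, while Dck had -0.51, Pola2 -0.49 and E2f2 -0.36. Among the other mitosis genes Ncapd2 and Ncaph had 0.59 each and Foxm1, a transcription factor of the mitotic programme, 0.41, while Cks2 had -0.81 and Hmgb2 -0.50. Myc had -1.63. Among the restraining genes Pkmyt1 had 0.89, Btg2 0.65 and Cdkn2c 0.60, and among the p53 targets Sesn1 had 1.39 and Zmat3 0.45. The calls of Lig1, Dck, Hmgb2, Pkmyt1 and Sesn1 held with each array left out in turn. With median centring these calls were lost (adjusted p 0.152 to 0.798, limma). Those of Pola2 and E2f2 were lost without any 1 of the arrays (adjusted p 0.0553 to 0.0995 and 0.0509 to 0.109, limma). Mki67, Mcm5, Prim1, Ncapd2, Ncaph, Foxm1, Myc, Btg2, Cdkn2c and Zmat3 each lost the call on leaving out 1 or more arrays. With the scanner's processed signals the Zmat3 difference was 0.022 (adjusted p = 0.949, limma). Leaving out arrays was not run for Pold1 and Cks2. Tissue and slide cannot be told apart in these differences.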

How the results depend on the processing

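The lower level of the members in mock lung passed for 33 to 36 genes over 15 alternatives, and for 35 with each replicate left out. In bone marrow the count of 0 became 3 with the scanner's processed signals or with background from the negative control spots, and 1 with scaling between arrays, with the mean of the probes, with each tissue fitted apart or with the replicate block, and it was 0 to 1 with 1 replicate left out. With processed signals the dim Aurkb, Chek1 and Tyms passed, and with negative control background Aurkb, Chek1 and Mcm3. Mcm3 was also the gene that passed with scaling, with the mean of the probes and with the replicate block (adjusted p 0.0402 to 0.0499, limma). Ube2c was the gene that passed with each tissue fitted apart. In lung the count of 5 became 0 with median centring and 8 with the replicate block, and ran from 3 to 10 with 1 replicate left out. For the difference between tissues the count of 2 became 1 with processed signals and 0 with median centring, and ran from 0 to 4 with 1 replicate left out. Deviations of the ratios from the tissue mean correlated at 0, 0.116 and 0.047 between same-numbered arrays, and at -0.121 to 0.042 between the others. With 3 arrays per tissue these values cannot decide whether the replicate numbers pair the samples. Among values that passed in either setting, signs that turned were those of Ccnd1 in the difference (-2.98, processed signals), of Cdkn1a in the difference (0.46, mean of the probes), and of E2f2 (0.16), Gas2l3 (0.081), Rb1 (0.11) and Spc24 (0.044) in bone marrow with median centring. Median centring also turned the signs of members that did not pass, 17 of 38 in bone marrow, 9 in lung and 19 in the difference. With it the bone marrow medians were 0.61 for replication, 0.45 for mitosis and 0.20 for all genes, against 0.14, -0.06 and 0.02, and the medians of the difference were -0.20 and -0.16, against 0.05 and 0.15. Over all genes, 3189 passed in bone marrow, against 6473 with processed signals, 6155 with negative control background and 0 with median centring. In lung 7516 passed, against 965 with median centring, for the difference 3373 against 33, and for the mock levels 14355 against 8083. The cause of these changes was not tested. Signal over background limits Aurkb, Chek1 and Ccne2.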
